A study of Mus musculus with 23 samples.

Results

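Genes of hepatic stellate cells and fibroblasts were followed in the liver of mice with hepatocyte expression of oncogenic BRAF and loss of Trp53, with 1 or both alleles of Icmt floxed. The set holds 10 of the 27179 genes in the count table, matched by symbol, and all 10 were measured. Lrat, Reln and Hgf stand for quiescence of stellate cells, and Des, Pdgfrb, Acta2, Dcn, Lum, Dpt and Tgfb1 for activation and for fibroblast matrix. RNA was sequenced from the liver of 15 mice, all females per the study's methods, from tissue free of visible tumor.

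All 15 mice carried Alb-Cre, a Cre recombinase under the albumin promoter that acts in hepatocytes, and Trp53 flx/flx. Ctrl mice (n = 6) had wild-type Braf and Icmt flx/+. ABpIF/+ mice (n = 6) had the BrafCA/+ allele, which gives BRAF V600E after Cre recombination, and Icmt flx/+. ABpIF/F mice (n = 3) had BrafCA/+ and Icmt flx/flx. The albumin promoter is active in hepatocytes and not in stellate cells or fibroblasts, the cells in which most of the 10 genes are expressed. The genotype labels write "BRAF +/+" for both oncogene groups, whereas the series' design text gives BrafCA/+, and 5 of the 6 Ctrl mice carry a strain label that no other mouse has. Ages were not in the labels.

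Depth ran from 24742910 to 32262649 counted reads per mouse. Icmt, the targeted gene, was at 27.8 to 34.7 CPM (counts scaled to a common library size by the TMM method) in Ctrl, 27.8 to 37.4 CPM in ABpIF/+ and 15.2 to 16.6 CPM in ABpIF/F. It was lower in ABpIF/F than in ABpIF/+ (log2 fold change −1.04, SE 0.13, adjusted p = 7.18e-06 by edgeR's quasi-likelihood test), and no ABpIF/F mouse overlapped the others. The mice are separate animals, so the p-values cover the spread between these mice.

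Stellate cells lie between the hepatocytes and the sinusoidal endothelium. At rest they store vitamin A as retinyl esters, and after injury they can become contractile, matrix-producing myofibroblasts that respond to PDGF and TGF-beta. Portal fibroblasts, around the portal vessels and bile ducts, are another source of matrix. In whole liver RNA, fewer cells of a type and less RNA per cell cannot be told apart.

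In ABpIF/+ livers 8 of the 10 genes were lower than in Ctrl livers, and none was higher. In ABpIF/F livers 9 of the 10 were higher than in ABpIF/+ livers. Quiescence and activation genes moved the same way: in ABpIF/+ against Ctrl 2 of 3 quiescence genes and 6 of 7 activation genes fell. Between ABpIF/F and Ctrl 1 quiescence gene, Reln, was higher, and 0 of 7 activation genes passed by edgeR, 0 by DESeq2 and 0 at an unadjusted p under 0.05. Calls required a change of at least 2-fold with an adjusted p, taken over all 27179 genes, under 0.01. By this rule 10.0% of all genes were called in ABpIF/+ against Ctrl (4.69% higher and 5.35% lower), 6.93% in ABpIF/F against Ctrl (4.55% higher and 2.38% lower) and 7.24% in ABpIF/F against ABpIF/+ (5.49% higher and 1.76% lower). Many of all genes have few or no reads, whereas each of the 10 had a mean of at least 1 CPM. Among the 12316 genes with such a mean, the shares called were 17.6%, 12.6% and 12.2% in the same order. The shares called lower were 9.39%, 5.04% and 3.72%.

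**Figure D1:**
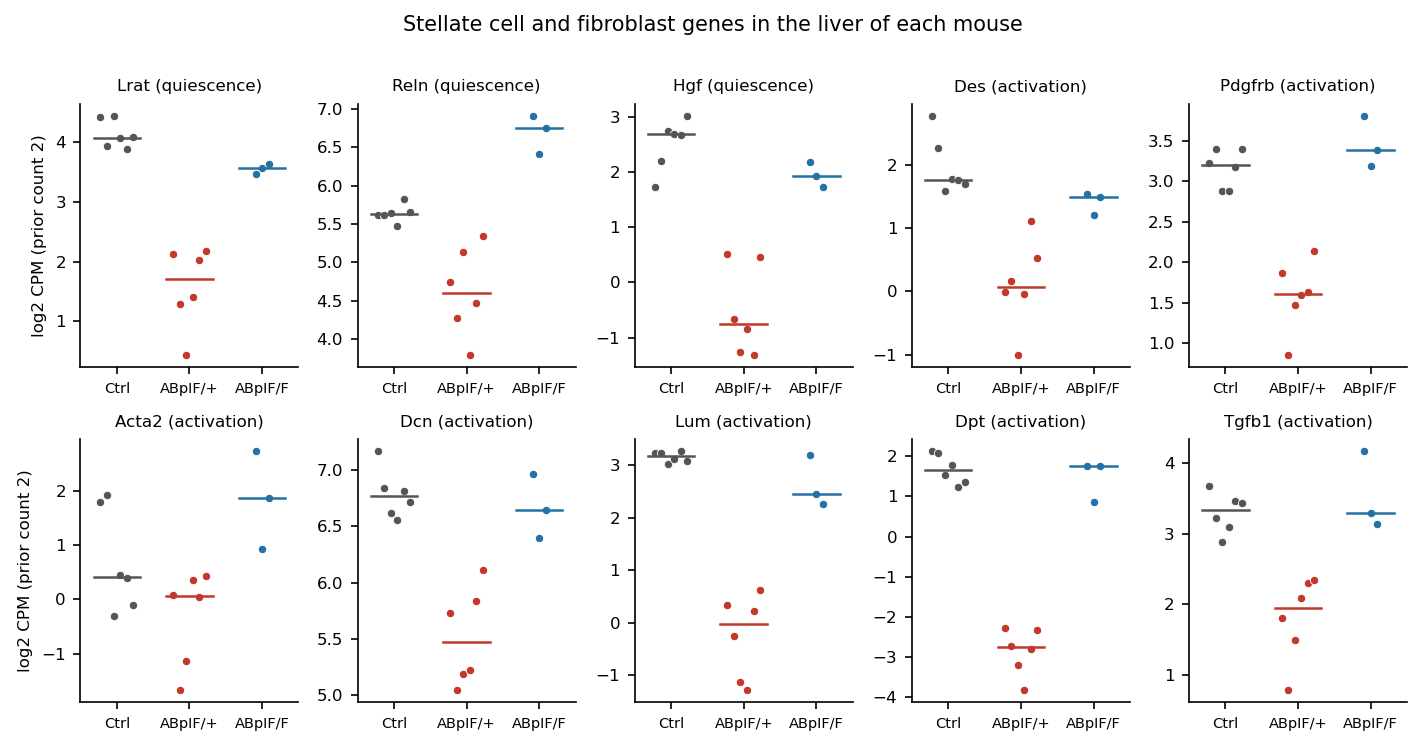
Level of each of the 10 genes in each mouse (1 point per mouse, line at the group's median), on a log2 CPM scale with a prior count of 2, so that axes differ between panels and do not start at 0. The 6 ABpIF/+ mice lie below the 6 Ctrl mice in 9 panels, Acta2 being the exception, and the 3 ABpIF/F mice lie above the ABpIF/+ mice in all 10.

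ABpIF/+ mice overlapped the other groups in few of the genes, whereas ABpIF/F and Ctrl overlapped in 7 of 10. For 9 of the 10 genes every ABpIF/+ mouse was below every Ctrl mouse, a pattern that 8.13% of all genes showed, with 7.78% in the other direction and 15.9% in either. For 10 of the 10 genes every ABpIF/F mouse was above every ABpIF/+ mouse, which 9.54% of all genes showed, with 9.15% in the other direction and 18.7% in either. Against Ctrl, all ABpIF/F mice were above for 1 gene (Reln) and below for 2 (Lrat and Des), where 9.27% of all genes were above, 7.85% below and 17.1% either. The median log2 fold change of the 10 genes was −1.69 in ABpIF/+ against Ctrl, −0.15 in ABpIF/F against Ctrl and 1.94 in ABpIF/F against ABpIF/+. Over the 12316 genes whose mean reached 1 CPM the same medians were 0.02, −0.00 and −0.04. These comparisons share their mice: ABpIF/+ enters the first and the last, and its values set both.

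The bases before the annotated start are given for a gene of retinoid storage, a filament gene and a matrix gene. Members that move together invite a look at their promoters. RefSeq windows (build GRCm38.p6) were at hand for 7 of the 10 genes. The bases run 5′ to 3′ on the gene's strand and end before the first annotated exon. Capitals mark the E-box CANNTG, the letters that basic helix-loop-helix factors such as TCF21 read, and GGAATG, the letters that TEAD factors read, which appears as CATTCC where it lies on the other strand.
Lrat, chr3:82903975-82904224, minus strand: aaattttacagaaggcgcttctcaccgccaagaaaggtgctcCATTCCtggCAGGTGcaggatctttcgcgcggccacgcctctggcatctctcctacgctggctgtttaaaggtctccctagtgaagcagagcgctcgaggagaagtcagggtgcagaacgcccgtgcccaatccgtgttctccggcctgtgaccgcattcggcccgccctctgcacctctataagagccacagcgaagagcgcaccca
Des, chr1:75360042-75360291, plus strand: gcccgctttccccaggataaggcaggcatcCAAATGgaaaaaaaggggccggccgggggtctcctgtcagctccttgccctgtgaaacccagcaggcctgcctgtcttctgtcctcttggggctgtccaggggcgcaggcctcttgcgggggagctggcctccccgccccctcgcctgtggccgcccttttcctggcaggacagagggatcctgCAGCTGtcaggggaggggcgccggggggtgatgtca
Dpt, chr1:164796413-164796643, plus strand: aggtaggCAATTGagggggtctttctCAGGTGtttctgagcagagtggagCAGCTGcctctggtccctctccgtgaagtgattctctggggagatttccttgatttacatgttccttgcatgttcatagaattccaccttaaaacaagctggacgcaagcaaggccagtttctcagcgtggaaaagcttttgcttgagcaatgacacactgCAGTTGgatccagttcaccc

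Over the 250 bases before the start, read on both strands, an E-box was present in 6 of the 7 genes and in 66.2% of all 32851 windows in the table. GGAATG was present in 2 of the 7, Lrat and Acta2, and in 12.6% of all windows. CAGAC, the short SMAD letters, was present in 2, Acta2 and Hgf, and in 42.2% of all windows. TGANTCA, read by AP-1, was found in none of the 7, against 6.75% of all windows. The strict CArG box CCWWWWWWGG, with W for A or T, was also found in none, against 1.47% of all windows. CArG boxes with a G or C among the W letters were not searched for, so these genes may hold such forms. The 250-base window of Dpt, the gene with the largest change, holds 6 E-boxes, a number that 0.274% of all windows reach, chosen for mention after its values were seen. The printed stretch of Dpt stops at 231 bases and shows 4 of its E-boxes, and the 250 printed bases of Des and of Lrat hold 2 and 1. A match of letters is a description and not a binding site.

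Lrat encodes lecithin retinol acyltransferase, which makes the retinyl esters that stellate cells store. It spans chr3:82892579-82903973 in GRCm38. In Ctrl livers it ran from 14.7 to 21.7 CPM with a median of 16.8. The 6 ABpIF/+ livers ran from 1.28 to 4.48 CPM with a median of 3.27, without overlap with Ctrl. The 3 ABpIF/F livers were at 11.0, 11.8 and 12.4 CPM, between both other groups and overlapping neither. Lrat fell in ABpIF/+ by 2.48 on the log2 scale (SE 0.22, adjusted p = 4.18e-08) and was higher in ABpIF/F than in ABpIF/+ by 1.89 (SE 0.25, adjusted p = 3.22e-05). The difference of −0.60 between ABpIF/F and Ctrl did not pass the test (SE 0.26, adjusted p = 0.134).

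Reln encodes reelin, a secreted glycoprotein that marks stellate cells in liver. It ran from 44.5 to 57.0 CPM in Ctrl with a median of 49.5 and from 13.8 to 40.7 CPM in ABpIF/+ with a median of 24.4. The ABpIF/F livers were at 84.9, 108 and 120 CPM. The 3 groups did not overlap, and Reln was the gene of the set whose ABpIF/F level lay above all Ctrl mice. The difference between ABpIF/+ and Ctrl was short of 2-fold (−0.93, SE 0.20, adjusted p = 0.00132), and it was called without BG40 or without BG175, with values between −0.80 and −1.12 as each mouse was left out. ABpIF/F was higher than ABpIF/+ by 1.99 (SE 0.23, adjusted p = 1.17e-05).

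Against Ctrl, Reln rose in ABpIF/F by 1.06 (SE 0.23, adjusted p = 0.00258), the only call among the 10 genes in that comparison. It was close to the 2-fold limit: it lost its call without the ABpIF/F mice BG38 (0.95) or BG183, or without the ABpIF/+ mouse BG175. It also lost it with BG3 as the sole Ctrl mouse, when only mice of the shared strain label were kept (1.04, adjusted p = 0.334), a fit in which the spread of the Ctrl group comes from the other groups, and in a fit with a clock score term (1.30, adjusted p = 0.0255).

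Hgf encodes hepatocyte growth factor, the ligand of the receptor MET on hepatocytes. Ctrl livers ran from 3.28 to 8.02 CPM with a median of 6.36, and ABpIF/+ livers from 0.332 to 1.36 CPM with a median of 0.528, or 9 to 41 counts per mouse. The ABpIF/F livers were at 3.26, 3.75 and 4.49 CPM, above every ABpIF/+ mouse, with the lowest just under the lowest Ctrl mouse and the others in the lower part of the Ctrl range. Hgf fell in ABpIF/+ by 2.97 (SE 0.33, adjusted p = 3.71e-07). It was higher in ABpIF/F than in ABpIF/+ by 2.36 (SE 0.36, adjusted p = 0.000106). With BG3 as the sole Ctrl mouse the change against Ctrl kept its direction and missed the threshold (−2.14, adjusted p = 0.0216).

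Des encodes desmin, an intermediate filament of stellate and muscle cells. It ran from 2.93 to 6.81 CPM in Ctrl with a median of 3.35 and from 0.426 to 2.10 CPM in ABpIF/+ with a median of 0.985. In ABpIF/F it was at 2.25, 2.74 and 2.85 CPM, above all ABpIF/+ mice and below all Ctrl mice. Des fell in ABpIF/+ by 1.84 (SE 0.30, adjusted p = 5.16e-05). It was the gene not called by edgeR in ABpIF/F against ABpIF/+ (1.21, SE 0.35, adjusted p = 0.017), whereas DESeq2 called it (1.22, adjusted p = 0.00408) and with it all 10 genes. Without BG88, the ABpIF/+ mouse with the highest level, it was called at 1.45.

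Pdgfrb encodes the PDGF receptor beta, the receptor through which PDGF-B drives division and migration of stellate cells. Ctrl livers ran from 7.31 to 10.5 CPM with a median of 9.16, and ABpIF/+ livers from 1.73 to 4.35 CPM with a median of 2.98. In ABpIF/F the gene was at 9.04, 10.4 and 13.9 CPM, within and above the Ctrl range. Pdgfrb fell in ABpIF/+ by 1.55 (SE 0.19, adjusted p = 1.2e-06). It was higher in ABpIF/F than in ABpIF/+ by 1.86 (SE 0.21, adjusted p = 4.75e-06).

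Acta2 encodes smooth muscle alpha-actin, the classical marker of myofibroblasts, which vascular smooth muscle also expresses. It was low and variable. Ctrl livers ran from 0.742 to 3.72 CPM with a median of 1.26 and ABpIF/+ livers from 0.242 to 1.28 CPM with a median of 0.974, so that these groups overlapped. The ABpIF/F livers were at 1.82, 3.59 and 6.56 CPM, above all ABpIF/+ mice. Acta2 was not called in ABpIF/+ against Ctrl (−1.13, SE 0.48, adjusted p = 0.100) nor in ABpIF/F against Ctrl (1.10, SE 0.53, adjusted p = 0.197).

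The call of Acta2 in ABpIF/F against ABpIF/+ (2.23, SE 0.54, adjusted p = 0.00689) was the least secure of the 9. It was lost without any 1 of 7 mice, namely BG30, BG31, BG40, BG55, BG88, BG38 and BG183. As each of the 15 mice was left out, values ran from 1.67 (without BG38) to 2.57 (without BG90), with adjusted p-values of up to 0.0803. In a fit with a clock score term it was 1.43 (adjusted p = 0.330).

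Dcn, Lum and Dpt encode matrix proteins. Decorin (Dcn) and lumican (Lum) are small leucine-rich proteoglycans that bind collagen fibrils, and dermatopontin (Dpt) is a small protein that binds decorin and is typical of fibroblasts. Dcn ran from 94.2 to 144 CPM in Ctrl with a median of 109 and from 32.7 to 68.9 CPM in ABpIF/+ with a median of 45.1, and the ABpIF/F livers were at 84.4, 100.1 and 126 CPM. All ABpIF/+ mice were below all others, and the other groups overlapped. Dcn fell in ABpIF/+ by 1.23 (SE 0.17, adjusted p = 9.08e-06). It was higher in ABpIF/F than in ABpIF/+ by 1.12 (SE 0.20, adjusted p = 0.000395), and at 0.95 without BG38 it was no longer 2-fold.

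Lum changed more than Dcn. It ran from 8.05 to 9.61 CPM in Ctrl with a median of 8.95, and from 0.340 to 1.47 CPM in ABpIF/+ with a median of 0.936. The ABpIF/F livers were at 4.73, 5.40 and 9.11 CPM, 1 of them within the Ctrl range. Lum fell in ABpIF/+ by 3.32 (SE 0.28, adjusted p = 7.17e-09). It was higher in ABpIF/F than in ABpIF/+ by 2.85 (SE 0.30, adjusted p = 2.41e-06).

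Dpt was nearly absent in ABpIF/+. It ran from 2.27 to 4.31 CPM in Ctrl with a median of 3.10 (67 to 112 counts per mouse). The 6 ABpIF/+ livers held 13 counts in all, 0 to 4 per mouse, or 0 to 0.136 CPM. The ABpIF/F livers were at 1.75, 3.33 and 3.35 CPM, with 49 to 121 counts. The fitted change was −5.29 in ABpIF/+ against Ctrl (SE 0.39, adjusted p = 1.04e-09) and 5.09 in ABpIF/F against ABpIF/+ (SE 0.42, adjusted p = 1.35e-07), and with so few counts the size of both is less certain than their direction.

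Tgfb1 encodes TGF-beta 1, the ligand that drives matrix production in stellate cells and that macrophages, platelets and endothelium also make. It ran from 7.28 to 12.8 CPM in Ctrl with a median of 10.0, and from 1.65 to 4.99 CPM in ABpIF/+ with a median of 3.82. In ABpIF/F it was at 8.75, 9.75 and 17.9 CPM, the highest in BG38. Tgfb1 fell in ABpIF/+ by 1.44 (SE 0.24, adjusted p = 9.2e-05) and was higher in ABpIF/F than in ABpIF/+ by 1.73 (SE 0.27, adjusted p = 0.000158). The fall missed the threshold with BG3 as the sole Ctrl mouse (−1.80, adjusted p = 0.0177).

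**Figure D2:**
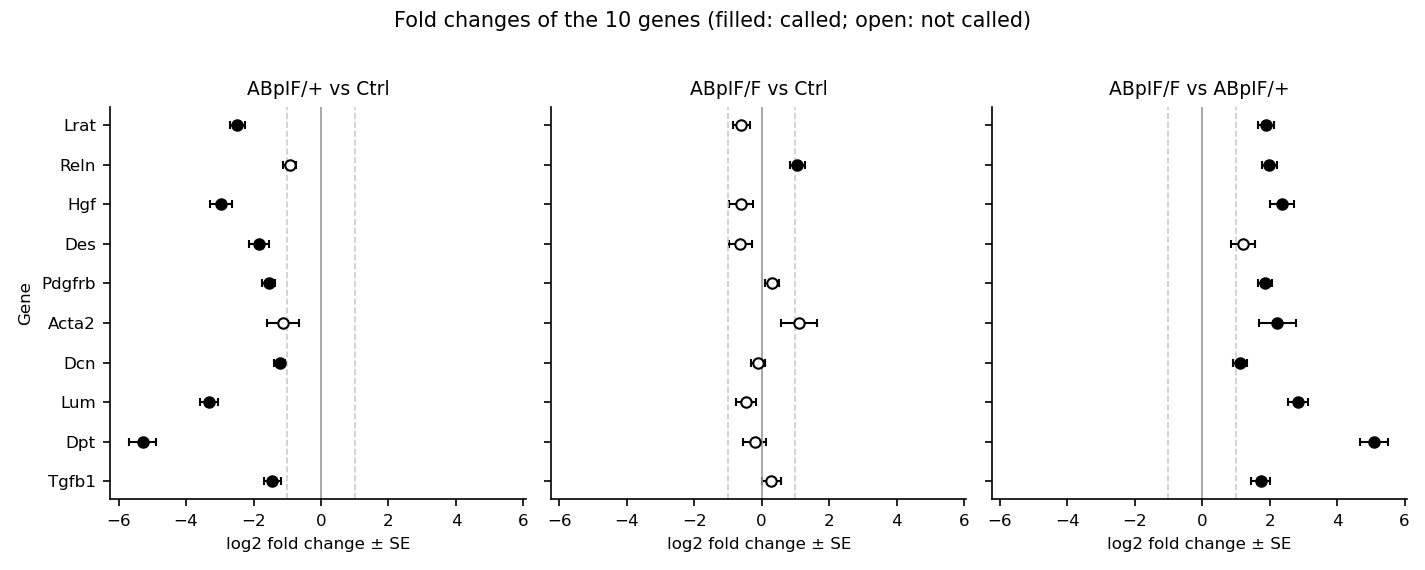
Log2 fold change of the 10 genes in the 3 comparisons, with the standard error as a bar, filled where the gene was called and open where it was not; dashed lines mark a 2-fold change. In ABpIF/+ against Ctrl values run from −5.29 (Dpt) to −0.93 (Reln), in ABpIF/F against Ctrl from −0.63 to 1.10 and in ABpIF/F against ABpIF/+ from 1.12 to 5.09.

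Compared per kilobase of exon, Dcn led in each group, at 19.1 CPM per kb ± 3.04 (SD, n = 6) in Ctrl, 8.15 ± 2.46 (SD, n = 6) in ABpIF/+ and 17.7 ± 3.57 (SD, n = 3) in ABpIF/F. In Ctrl, Lum (3.63 CPM per kb) and Lrat (3.32) came next and differed by less than the SD of Lrat. Reln (2.11), Tgfb1 (1.97), Dpt (1.88) and Pdgfrb (1.64) followed, each pair of neighbours differing by less than the larger SD, and Des (1.09), Acta2 (0.854) and Hgf (0.817) came last. In ABpIF/F, Reln moved to the second place at 4.40 CPM per kb ± 0.758 (SD, n = 3), ahead of Lum at 2.62 ± 0.965 (SD, n = 3). In ABpIF/+ Dpt was last at 0.0442 CPM per kb.

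Ratios between genes within a mouse do not depend on the scaling of libraries, and they show where the genes did not move in proportion. Reads of Lrat per read of Pdgfrb, a quiescence gene against an activation gene, ran from 1.46 to 2.97 in Ctrl, from 0.471 to 1.37 in ABpIF/+ and from 0.787 to 1.31 in ABpIF/F. Both oncogene groups lay below all Ctrl mice in this ratio. The ratio of Reln to Lrat went the other way, from 2.30 to 3.87 in Ctrl, 5.38 to 27.3 in ABpIF/+ and 7.18 to 11.0 in ABpIF/F, although Reln and Lrat are both quiescence genes.

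For Reln to Pdgfrb the Ctrl mice ran from 4.69 to 6.81 and the ABpIF/F mice from 8.64 to 10.4, while the ABpIF/+ mice, from 4.69 to 12.9, overlapped both. Within the matrix genes, Dcn to Lum ran from 11.0 to 15.5 in Ctrl, from 42.7 to 109 in ABpIF/+ and from 13.8 to 21.1 in ABpIF/F. Here the ABpIF/+ mice stood apart and the other groups overlapped. Acta2 to Des ran from 0.253 to 0.775, from 0.231 to 1.33 and from 0.810 to 2.30 in Ctrl, ABpIF/+ and ABpIF/F. The ratios were chosen with the levels known and carry no test.

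**Figure D3:**
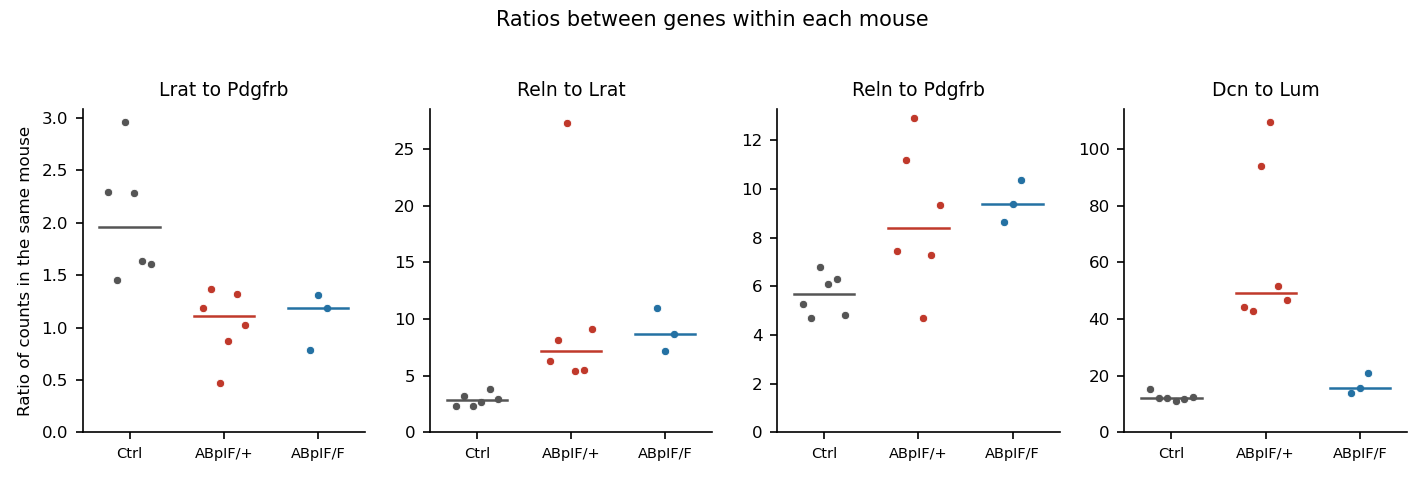
Ratio of counts between pairs of genes in the same mouse (1 point per mouse, line at the group's median, axes from 0). Lrat to Pdgfrb is lower and Reln to Lrat higher in both oncogene groups than in all Ctrl mice, and Dcn to Lum stands apart in ABpIF/+ alone, at 42.7 to 109.

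Other genes of stellate cells were read as a list of 21. In ABpIF/+ against Ctrl 16 of 21 fell, with a median log2 fold change of −1.75. Among those that fell were Tcf21, a transcription factor of mesenchymal cells (−2.66, SE 0.35, adjusted p = 5.83e-06), and Ngfr, the p75 neurotrophin receptor (−2.35, SE 0.23, adjusted p = 5.98e-08). In ABpIF/F against ABpIF/+ 12 of 21 rose and none fell, led by Rgs5, a gene of pericytes (3.22, SE 0.39, adjusted p = 1.52e-05), and Ngfr (2.75). Between ABpIF/F and Ctrl 1 gene fell, Hand2, a transcription factor of stellate cells (−1.31, SE 0.27, adjusted p = 0.00137).

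Myofibroblast activation genes outside the set numbered 18. In ABpIF/+ 10 of 18 fell, and the fibrillar collagen genes Col3a1 (−4.32, SE 0.27, adjusted p = 3.69e-09) and Col1a1 (−4.30, SE 0.37, adjusted p = 1.77e-07) fell most. Col1a1 went from 9.40 CPM in Ctrl to 0.467 CPM in ABpIF/+ and 19.8 CPM in ABpIF/F. In ABpIF/F against ABpIF/+ 13 of 18 rose, with Col1a1 (5.37, SE 0.41), Col3a1 (4.66, SE 0.29) and Tnc, the matrix protein tenascin C (4.55, SE 0.50), in the lead. Against Ctrl 4 of 18 rose in ABpIF/F, among them Thbs1, thrombospondin 1 (3.31, SE 0.50, adjusted p = 0.00015), and Ccn2, connective tissue growth factor (2.58, SE 0.56, adjusted p = 0.0057). Ccn2 was at 62.5 CPM in BG38 and at 12.4 and 17.6 CPM in the other ABpIF/F mice, and without BG38 it was no longer called (1.54, SE 0.51, adjusted p = 0.0869).

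Portal fibroblast genes gave 7 lower and 1 higher of 13 in ABpIF/+ against Ctrl, 5 higher in ABpIF/F against ABpIF/+, and 3 higher with 1 lower in ABpIF/F against Ctrl. Mfap4, a microfibril protein, fell in ABpIF/+ (−4.30, SE 0.58, adjusted p = 5.76e-06). Col15a1, a basement membrane collagen, stayed low in both oncogene groups (−3.08 in ABpIF/+ and −1.73 in ABpIF/F, adjusted p = 4.27e-06 and 0.0081). Of 14 smooth muscle and contractile genes 3 fell in ABpIF/+, among them Myh11, the smooth muscle myosin heavy chain (−1.49, SE 0.37, adjusted p = 0.00419), and 4 rose in ABpIF/F against ABpIF/+. Of 12 other small leucine-rich proteoglycan genes 6 fell in ABpIF/+, among them Bgn, which encodes biglycan (−1.90, SE 0.28, adjusted p = 0.000116), and 3 rose in ABpIF/F against ABpIF/+. Tsku, which encodes the secreted proteoglycan tsukushi, fell both in ABpIF/+ (−2.29, SE 0.56, adjusted p = 0.00772) and in ABpIF/F against Ctrl (−3.88, SE 0.81, adjusted p = 0.00453), where it was the 1 gene of this list that passed. Its mean went from 71.4 CPM in Ctrl to 14.6 CPM in ABpIF/+ and 4.80 CPM in ABpIF/F, so that it was not higher again in ABpIF/F.

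The partners of the set's ligands and receptors moved less uniformly. Of 26 other genes of the TGF-beta pathway 4 rose and 4 fell in ABpIF/+ against Ctrl. Tgfbr2, the type II receptor, went from 20.9 CPM in Ctrl to 75.6 CPM in ABpIF/+ and 65.1 CPM in ABpIF/F (1.86, SE 0.16, adjusted p = 2.04e-08, and 1.64, SE 0.19, adjusted p = 1.99e-06), the direction opposite to Tgfb1 in ABpIF/+. Ltbp2, a latent TGF-beta binding protein, fell in ABpIF/+ (−2.21, SE 0.54, adjusted p = 0.00337). In ABpIF/F against Ctrl 6 rose and none fell, with Tgfb2 at 3.18 (SE 0.43, adjusted p = 1.24e-05).

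Among 6 other genes of the PDGF pathway, Pdgfb, the main ligand of PDGFRB, was at 1.40 CPM in Ctrl, 1.93 CPM in ABpIF/+ and 5.02 CPM in ABpIF/F, and rose in ABpIF/F against Ctrl (1.84, SE 0.37, adjusted p = 0.000886). Pdgfc rose in ABpIF/F against Ctrl (2.08, SE 0.35, adjusted p = 0.000299), and Pdgfa was higher in both oncogene groups (1.04 and 1.14). Of 7 HGF pathway genes 0 were called in ABpIF/+ against Ctrl by edgeR and 1 by DESeq2, and 5 had an unadjusted p under 0.05. Among these, Hgfac, the HGF activator, had a log2 fold change of 0.71 (SE 0.15, adjusted p = 0.000869) and Met, the receptor, −0.45 (SE 0.15, adjusted p = 0.0341). Of the 3 reelin pathway genes Dab1, the adaptor of reelin signalling, rose in ABpIF/+ (3.82, SE 0.37, adjusted p = 2.07e-07) and in ABpIF/F (4.87, SE 0.41, adjusted p = 7.95e-08), while the receptor gene Vldlr had −0.03 and 0.17. Of 16 genes of retinoid storage and signalling 2 rose and 2 fell in ABpIF/+, with Aldh1a1, a retinaldehyde dehydrogenase that hepatocytes also express, at −2.96 (SE 0.22, adjusted p = 1.74e-09).

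Markers of other liver cells moved too. Sinusoidal endothelium markers, summed over 7 genes, ran from 180 to 263 CPM in Ctrl, 78.8 to 188 CPM in ABpIF/+ and 206 to 294 CPM in ABpIF/F, with 1 of 7 called lower in ABpIF/+ (Clec4g, −1.22, SE 0.25, adjusted p = 0.00142). The macrophage list ran from 338 to 476, 125 to 238 and 295 to 666 CPM, with 5 of 10 lower and 2 higher in ABpIF/+ against Ctrl and 6 of 10 higher in ABpIF/F against ABpIF/+. Lymphocyte markers ran from 2.83 to 5.91, 0.161 to 2.27 and 3.57 to 11.4 CPM, with 2 of 7 lower in ABpIF/+. By the medians of their sums, these lists were lower in ABpIF/+ than in Ctrl and higher in ABpIF/F than in ABpIF/+. The endothelial sums of Ctrl and ABpIF/+ overlapped, and no lymphocyte marker had a mean of 1 CPM. The stellate cell genes went the same way, and the part of these lists in the result was not tested.

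The summed hepatocyte list, most of it Alb, ran from 93870 to 127700 CPM in Ctrl, 171100 to 237900 CPM in ABpIF/+ and 121100 to 213600 CPM in ABpIF/F, above Ctrl without overlap in ABpIF/+ alone. Its 7 markers did not move together: 2 were called higher in ABpIF/+ against Ctrl, with values from −0.81 to 2.21, and in ABpIF/F against Ctrl 1 was higher (Apoa1, 1.67) and 1 lower (Tat, −1.81), with a median of −0.21. Cholangiocyte markers ran from 36.0 to 68.9, 30.3 to 145 and 206 to 1156 CPM, with 7 of 8 higher in ABpIF/F against ABpIF/+, and neutrophil markers from 0.746 to 2.01, 1.94 to 6.26 and 2.42 to 73.1 CPM. Platelet markers ran from 3.77 to 7.06, 7.09 to 12.0 and 5.48 to 17.1 CPM, and mesothelial markers from 2.13 to 10.1, 4.46 to 16.8 and 5.58 to 14.9 CPM. Of these lists 1 neutrophil marker was at 0 in all Ctrl mice, and no other marker was at 0 in a whole group.

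**Figure D4:**
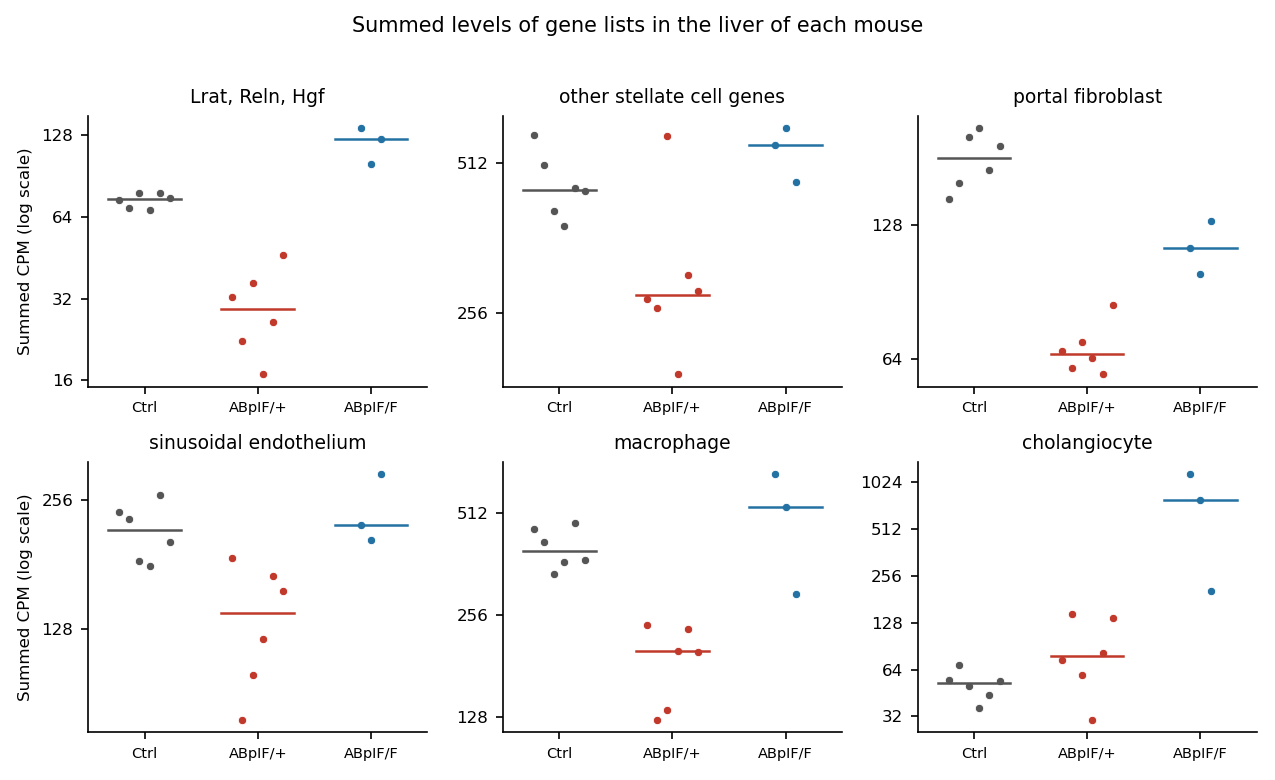
Summed CPM of 6 gene lists in each mouse on a log scale (1 point per mouse, line at the group's median). Lrat, Reln and Hgf together run from 16.9 to 46.5 CPM in ABpIF/+, below the 67.6 to 78.1 CPM of Ctrl. In ABpIF/+ the macrophage list also lies below Ctrl, and the endothelial list is lower but overlaps Ctrl. The cholangiocyte list is high in ABpIF/F.

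Clock genes also differed between the groups. A score over 13 clock genes (mean of z-scores, 4 of them with the sign turned) was −1.66 to −0.60 in ABpIF/F, 0.11 to 0.63 in ABpIF/+ and 0.33 to 0.60 in 5 Ctrl mice, with malpa387 at −1.19. With this score as a covariate the 8 genes called in ABpIF/+ against Ctrl kept their calls. In ABpIF/F against ABpIF/+, whose scores do not overlap, 5 of the 9 kept theirs, and Hgf (2.68, adjusted p = 0.0104), Acta2 (1.43), Dcn (1.13, adjusted p = 0.042) and Tgfb1 (1.75, adjusted p = 0.0302) did not.

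The genes whose log2 CPM over the 15 mice was most like a member's were sought among 12201 other genes whose mean reached 1 CPM. Lrat was most like Ednrb, the endothelin receptor B gene (Pearson r = 0.98), then Gdf2 and Bmp5 (0.97 each). Des was most like Colec11 (0.98), Gucy1b1 and Tcf21 (0.95 each), and Pdgfrb most like Thbs2 (0.98), Hk1 and Sparcl1 (0.97 each). For Dcn the nearest were Nes, Postn and Bgn (0.98 each), for Lum Col14a1 and Lama1 (0.98 each) and Plvap (0.97), and for Dpt Col3a1, Ncald and Col14a1 (0.97 each).

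Hgf was nearest to Sytl4 (0.96), Ntn1 and Hnrnph3 (0.95 each), and Tgfb1 to Ifitm1, Thbs2 and Sdc3 (0.97 each). Reln was nearest to Lgals3bp (0.96), Capn1 (0.95) and Mup20 (0.94). For Reln, as for Hgf, Pdgfrb, Acta2, Lum, Dpt and Tgfb1, none of the nearest genes named is on the stellate cell list. Lrat, Des and Dcn did have nearest genes on that list. Acta2 had the lowest likeness to its nearest gene, with Ddah2 at 0.91, Cnn2 at 0.90 and Arhgap45 at 0.90. The 15 mice fall into 3 groups, and most genes of the set place the ABpIF/+ mice apart from the other groups, which mostly overlap. The values of likeness thus mostly describe a shared difference between groups, and the genes share libraries and scaling.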

How the data were processed

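Libraries were made from liver polyA RNA with a stranded kit and sequenced as paired ends. Per the submitters' processing notes, reads were aligned with HISAT2 to mm10 and counted per gene with featureCounts (2.0.8), and the strand setting and annotation of the counting are not given in the sources used here. The authors deposited raw counts of 27179 genes in 15 mouse columns, of which 1319 genes have no symbol. Symbols came from a second deposited table, whose columns of the authors' own fold changes and p-values were not used. Of 23 listed samples, 8 mice were named by 2 samples and 7 by 1, and each mouse is 1 column and 1 replicate.

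Counts were fitted with edgeR (4.0.16, R 4.3.3, quasi-likelihood in its legacy form, robust, TMM) in 1 model of 3 groups over all genes, with Benjamini-Hochberg adjustment; calls needed a change of at least 2-fold with an adjusted p under 0.01. CPM per kb used the union of exons in GENCODE on GRCm38. The alternatives were DESeq2 (1.42.0), RLE scaling, a low-count filter, other thresholds, the quasi-likelihood of edgeR 4, no robust estimation, only the compared groups, the shared strain label, a clock covariate and leaving out each mouse. In counts simulated for ABpIF/+ against Ctrl over 27179 genes, 50 of 59 genes changed by 1.5 on the log2 scale, 61 of 62 changed by 2 and 77 of 79 changed by 3 were called, with 1 false call. The 200 changed genes were drawn from genes above a minimum mean count, with rises and falls equally likely. The data had more called genes, 2729, and changes of genes with few counts were not simulated. Figures were drawn with Matplotlib (3.10.9).

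The genes and lists were chosen with earlier results of these data known. Text names the 10 genes, Icmt, chosen pathway partners and, per list and comparison, up to 3 called genes of largest change with a mean of at least 1 CPM, and for likeness the 3 nearest genes. Depth of 24742910 to 32262649 reads limits precision most for Dpt, Hgf, Acta2, Des and Lum in ABpIF/+. Some genes of the lists are counted and not reported here by name.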

Additional observations from a re-analysis of the deposited data

Results flagged for a closer look

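Over 82 groups of mice tested, 10 had a mouse whose gap to its neighbour exceeded Dixon's limit, where chance flags about 1 in 20. No level of a single member gene was among them. The limit used was that for 6 mice, so Ctrl and ABpIF/+ were screened and the 3 ABpIF/F mice were not. In ABpIF/+ the mouse BG40 stood apart in the ratio of Reln to Lrat (27.3, against 9.09 in the next mouse), in the summed level of the other stellate cell genes (579 CPM, against 306 CPM in the next), in that of the other myofibroblast activation genes (4558 CPM, next 2688 CPM, of which Fn1, the fibronectin gene, gave 4517 CPM in BG40) and in that of the mesothelial markers (16.8 CPM, next 8.94 CPM). Without Fn1 the myofibroblast sum was 41.6 CPM in BG40, within the 28.7 to 60.9 CPM of the other ABpIF/+ mice, a sum chosen after seeing the data. Steap4, named after its values were seen, was at 426 CPM in BG40 and at 34.1 to 59.5 CPM in the other ABpIF/+ mice.

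In Ctrl the mouse BG3, the Ctrl mouse with the strain label of the other groups, stood apart in the ratio of Dcn to Lum (15.5, next 12.5) and of Des to Pdgfrb (0.731, next 0.461). The summed TGF-beta pathway genes were at 422 CPM in malpa459 (next 376 CPM). The summed PDGF pathway genes were at 19.0 CPM in malpa387 (next 13.6 CPM) and at 20.0 CPM in BG30 of ABpIF/+ (next 14.7 CPM). Neutrophil markers were at 6.26 CPM in BG88 of ABpIF/+ (next 3.52 CPM).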

How the results depend on the processing

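No paired analysis was possible because the labels give no replicate numbers shared between the groups. The 8 genes called in ABpIF/+ against Ctrl, the 1 in ABpIF/F against Ctrl and the 9 in ABpIF/F against ABpIF/+ became 4, 0 and 4 when at least 2 on the log2 scale was required. In ABpIF/F against Ctrl the count was 0 with the shared strain label alone and 0 with the clock covariate, which gave 5 in ABpIF/F against ABpIF/+. As each of 15 mice was left out the counts ran from 8 to 9, from 0 to 1 and from 7 to 9. The 0 came without BG175, BG38 or BG183 and the 7 without BG38. Reversals were all in ABpIF/F against Ctrl, where none of these genes was called. They were Hgf at 0.18 and Tgfb1 at −0.12 with the shared strain label, Tgfb1 at −0.10 without BG38, and Dcn at 0.02 and Dpt at 0.05 without BG90. As mice were left out, Tgfb1 ran from −0.10 to 0.48, Dcn from −0.27 to 0.02 and Dpt from −0.35 to 0.05. Hgf ran from −0.74 to −0.50 and kept its direction. The cause of the reversals was not tested. Of single gene values over all settings, 242, 239 and 230 of 250 per comparison kept direction and side of the threshold. RLE scaling moved the median gene by 0.01 at most. Counts of 0 to 4 reads limit Dpt in ABpIF/+.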
